A study of Mus musculus with 20 samples.

Results

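The genes described here encode the enzymes that build cholesterol and long-chain fatty acids, together with the proteins that control them. They were chosen by symbol as 36 of the 55487 gene identifiers in the count table: 7 enzymes of the mevalonate arm, 11 of the sterol arm, 6 regulators and carriers of sterols, 5 genes of fatty acid supply and chain synthesis, and 7 elongases and desaturases. RNA was sequenced from 20 cultures of BV-2, an immortalized microglial cell line established from neonatal brain of C57BL/6 mice and labelled WT. The 4 groups of 5 cultures were young untreated, aged untreated, young LPS treated and aged LPS treated. Young cells are BV-2 at a low passage, and aged cells are the same line after long-term cultivation, so that age here means time in culture of an immortalized line and not the age of an animal. LPS, a bacterial ligand of Toll-like receptor 4, was given at 100 ng/ml for 6 hours, and all groups grew in the same medium with 10% foetal bovine serum. The labels number the replicates 1 to 5 as batches, so that a batch is made up of 4 cultures, each from another group. The study describes the replicates as independent. Its methods state that aged cells were frozen after long-term cultivation and that experiments drew on aliquots. Whether the aged cultures came from separate long-term cultivations is not stated. Tests between the ages thus measure spread between cultures, which may not cover that between separately aged lines. Of the 36 genes, 34 passed the filter on low counts and were tested.

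In animal cells, sterol and fatty acid synthesis both start from acetyl-CoA and are controlled by the membrane-bound transcription factors SREBP-1 and SREBP-2, encoded by *Srebf1* and *Srebf2*. When sterols are low, the escort protein SCAP carries them from the endoplasmic reticulum to the Golgi, where proteases release the active factor, and INSIG proteins hold the complex back when sterols are high. In macrophages and microglia, the products supply membranes, oxysterols and the unsaturated fatty acids from which lipid mediators are made.

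Promoter windows of 4 genes are shown because they represent different responses to LPS: *Hmgcs1* and *Elovl6* fell, *Insig2* rose and *Insig1* did not pass the test. The windows run from 250 bases before to 50 bases after the start of a RefSeq transcript in GRCm38.p6. They lie at chr13:119690101-119690400 on the + strand for *Hmgcs1*, chr5:28071162-28071461 on the + strand for *Insig1*, chr1:121332540-121332839 on the - strand for *Insig2* and chr3:129532136-129532435 on the + strand for *Elovl6*. Capitals mark every match, on either strand, to the sterol regulatory element TCACNCCAC or to the CCAAT box, read as CCAAT or ATTGG.
Hmgcs1: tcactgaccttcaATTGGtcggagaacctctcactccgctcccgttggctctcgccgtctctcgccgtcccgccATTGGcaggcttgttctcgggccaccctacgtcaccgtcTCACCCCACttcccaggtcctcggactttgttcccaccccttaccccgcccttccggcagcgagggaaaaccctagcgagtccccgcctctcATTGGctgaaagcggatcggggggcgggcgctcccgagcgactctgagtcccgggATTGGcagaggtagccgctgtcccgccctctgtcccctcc
Insig1: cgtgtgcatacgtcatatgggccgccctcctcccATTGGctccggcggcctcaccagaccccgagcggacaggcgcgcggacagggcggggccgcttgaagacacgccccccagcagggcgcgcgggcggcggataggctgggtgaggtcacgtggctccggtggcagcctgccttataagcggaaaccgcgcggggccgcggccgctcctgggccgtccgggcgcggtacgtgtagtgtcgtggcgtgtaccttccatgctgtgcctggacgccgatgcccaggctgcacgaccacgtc
Insig2: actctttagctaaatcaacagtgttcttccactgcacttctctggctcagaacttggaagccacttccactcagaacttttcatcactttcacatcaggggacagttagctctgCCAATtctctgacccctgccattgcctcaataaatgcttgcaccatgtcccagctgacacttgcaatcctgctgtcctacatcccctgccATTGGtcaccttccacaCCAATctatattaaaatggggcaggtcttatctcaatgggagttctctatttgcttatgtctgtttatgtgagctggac
Elovl6: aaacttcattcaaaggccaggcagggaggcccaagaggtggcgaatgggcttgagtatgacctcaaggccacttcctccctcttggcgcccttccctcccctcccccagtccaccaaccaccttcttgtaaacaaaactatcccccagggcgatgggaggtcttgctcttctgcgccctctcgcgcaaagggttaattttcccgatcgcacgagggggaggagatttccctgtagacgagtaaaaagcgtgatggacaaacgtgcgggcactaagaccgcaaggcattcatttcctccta

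The window of *Hmgcs1* held 1 match to the sterol regulatory element, beginning 137 bases before the start, and 4 to the CCAAT box. The window of *Insig1* held 1 CCAAT box, that of *Insig2* held 3, and that of *Elovl6* held neither motif. RefSeq windows were matched for 29 of the 36 genes, 39 windows in all. The letters TCACNCCAC were found in 1 of these 39 windows, that of *Hmgcs1*, and in 1.24% of all 32851 mouse windows. The CCAAT box was found in 25 of the 39, or 64.1%, against 37.4% of all windows. These matches describe letters in short windows and were not tested for binding. No match to one motif overlapped a match to the other in the windows shown.

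Libraries held 11371508 to 16829292 counts, the lowest in young LPS replicate 1, and mitochondrial genes took 0.517% to 1.297% of them. The 36 genes took 0.289% to 0.852% of the counts of a library. The label of microglia was checked on 13 markers, of which 12 reached 1 CPM (counts brought to a common library total, with TMM scaling) in at least 1 library. *Csf1r* ranged from 562 to 998 CPM and *Cd68* from 753 to 1409 CPM, whereas *Cx3cr1* and *P2ry12* stayed at or below 1.87 CPM and *Sall1* had no count. The 4 neuronal markers summed to at most 0.414 CPM and the 4 astrocyte markers to at most 1.25 CPM in any library. The 4 oligodendrocyte markers summed to at most 1.78 CPM. The 4 endothelial markers summed to 308 to 405 CPM, nearly all of it *Flt1*, while *Pecam1*, *Cdh5* and *Cldn5* stayed at or below 0.345 CPM.

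In young untreated cultures, the mean level per kilobase of exon was highest for *Scd2*, a desaturase that makes monounsaturated fatty acids, at 302 ± 53.9 CPM per kb (SD, n = 5). *Fasn*, the fatty acid synthase, followed at 84.8 ± 4.87 and *Elovl1*, an elongase of very long saturated chains, at 76.4 ± 6.03 CPM per kb, and the ranges of mean ± SD of these neighbours overlapped. Among the sterol genes, *Srebf2* stood at 49.0 ± 3.23, *Insig1* at 36 ± 5.02, *Hmgcs1* at 35.1 ± 3.63 and *Sqle* at 34.1 ± 1.52 CPM per kb. The last 3 of these did not differ beyond their spread. The lowest of the tested genes was *Acss2*, which makes acetyl-CoA from acetate, at 0.364 ± 0.0764 CPM per kb. The other stearoyl-CoA desaturase, *Scd1*, had 46 counts over all 20 libraries and at most 0.517 CPM, and the delta-6 desaturase *Fads2* had 3 counts in all. A count of 3 in a single library corresponds to 0.178 to 0.264 CPM, and this floor covers counting error only. *Scd1* and *Fads2* did not pass the filter and are not compared.

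Before the groups are compared, the spread between cultures has to be described, because in most of these genes the cultures of a group departed from their mean together. Aged untreated replicate 1 was the highest of its 5 cultures in 30 of the 34 tested genes, against 21.8% of all genes tested. Aged untreated replicate 3 was the lowest in 23 of the 34, against 26.4% of all genes. The same replicate numbers stood at the ends in the aged LPS-treated cultures. There replicate 1 was highest in 25 genes, against 21.4% of all genes, and replicate 3 lowest in 27, against 27.4%. In the young LPS-treated cultures, replicate 1 was lowest in 25 genes, against 26.9% of all genes, and replicate 5 highest in 22, against 18.1%. In the young untreated cultures, replicate 5 was highest in 19 genes, against 18.5%, and replicate 1 lowest in 13, against 25.9%. Over the 34 genes, the median deviation from the group mean was 0.40 on the log2 scale in aged untreated replicate 1, -0.25 in aged untreated replicate 3, -0.40 in aged LPS replicate 3 and -0.28 in young LPS replicate 1, whereas the median over all genes lay between -0.011 and 0.0069 in every library. The SD of log2 CPM was larger in the aged than in the young untreated cultures for 30 of the 34 genes (88.2%), against 48.9% of all genes, and with LPS for 25 of the 34 (73.5%), against 43.9% of all genes. The median SD of these genes was 0.286 in aged and 0.122 in young untreated cultures, where all genes had 0.123 and 0.124. What sets these cultures apart was not tested.

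**Figure D1:**
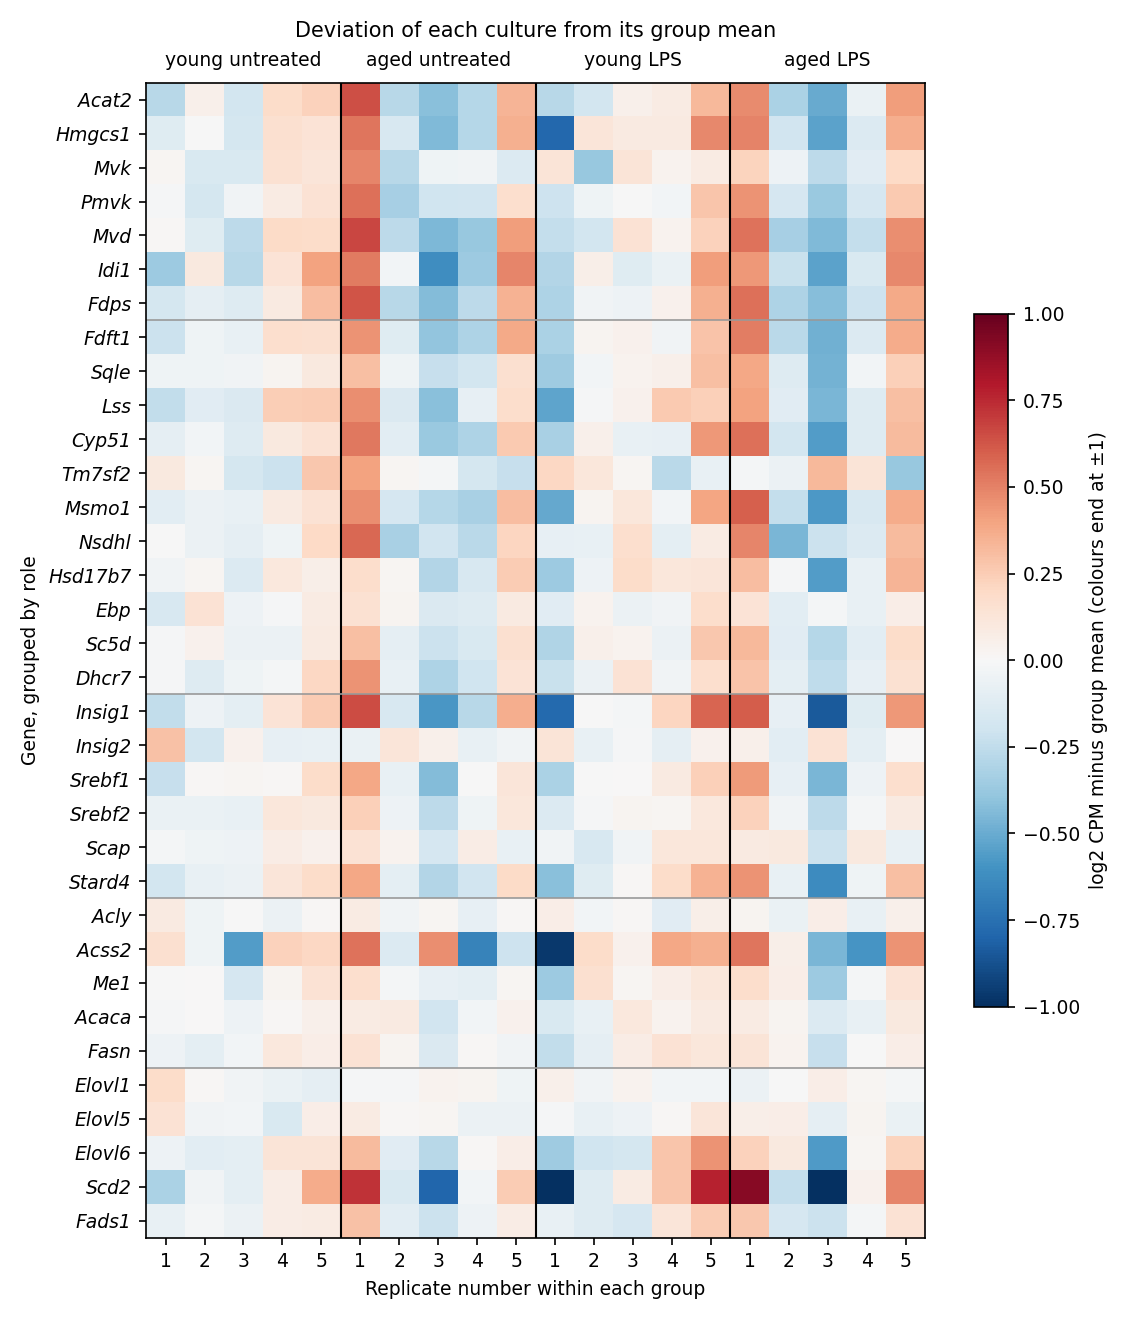
Log2 CPM of each culture minus the mean of its group (colour, ending at 1 in either direction) for the 34 tested genes (vertical axis, grouped by role) in the 20 cultures (horizontal axis, replicate number within each group). Aged replicate 1 is above its group mean and aged replicate 3 below it in most genes, with and without LPS, while *Insig2*, *Acly*, *Elovl1* and *Elovl5* show little of this pattern.

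LPS treatment of young cultures was compared with no treatment to ask how lipid synthesis genes took part in the response to the stimulus. Of the 34 genes, 14 fell and 5 rose (edgeR's quasi-likelihood test, Benjamini-Hochberg adjusted p below 0.05 over 12799 genes). The background was high: 33.5% of all genes tested fell and 31.2% rose, so that the 41.2% of these genes that fell lie close to it and the 14.7% that rose lie below it. With the batch as a block, 19 fell and 5 rose. In aged cultures, 13 of the 34 fell and 4 rose, against 26.9% and 27.5% of all genes, and with the block 15 fell and 4 rose. Shares of all genes were counted for each comparison only in the fit without the block and with TMM scaling. None was counted for the block, for other scalings, for stricter thresholds, for fits without a library or batch, or for calls made in both ages. Those counts therefore have no background beside them. The median log2 fold change of the 34 genes was -0.25 in young and -0.22 in aged cultures, where the medians of all genes were -0.01 and 0.00. Without TMM scaling, by library size alone, the medians of all genes moved to -0.23 and -0.16. The calls among these genes then became 22 lower and 3 higher in young cultures, and 21 lower and 2 higher in aged cultures. Relative to the median of all genes, however, 27 of the 34 genes lay below and 7 above it in young cultures, and 26 below and 8 above in aged cultures, under both scalings. Without young LPS replicate 1, 12 genes fell and 5 rose in young cultures. Without aged untreated replicate 1, 10 fell and 4 rose in aged cultures with a median of -0.10, and without aged LPS replicate 3, 10 fell and 4 rose with a median of -0.12. These fits kept the other cultures of the same batch, so they also unbalance the groups. The young and aged comparisons share no culture: 10 genes fell and 4 rose in both, 12 passed in neither, and 8 passed in a single age, a split that does not by itself show a difference between the ages. As RNA came from whole cultures, fewer expressing cells and less RNA per cell cannot be told apart.

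**Figure D2:**
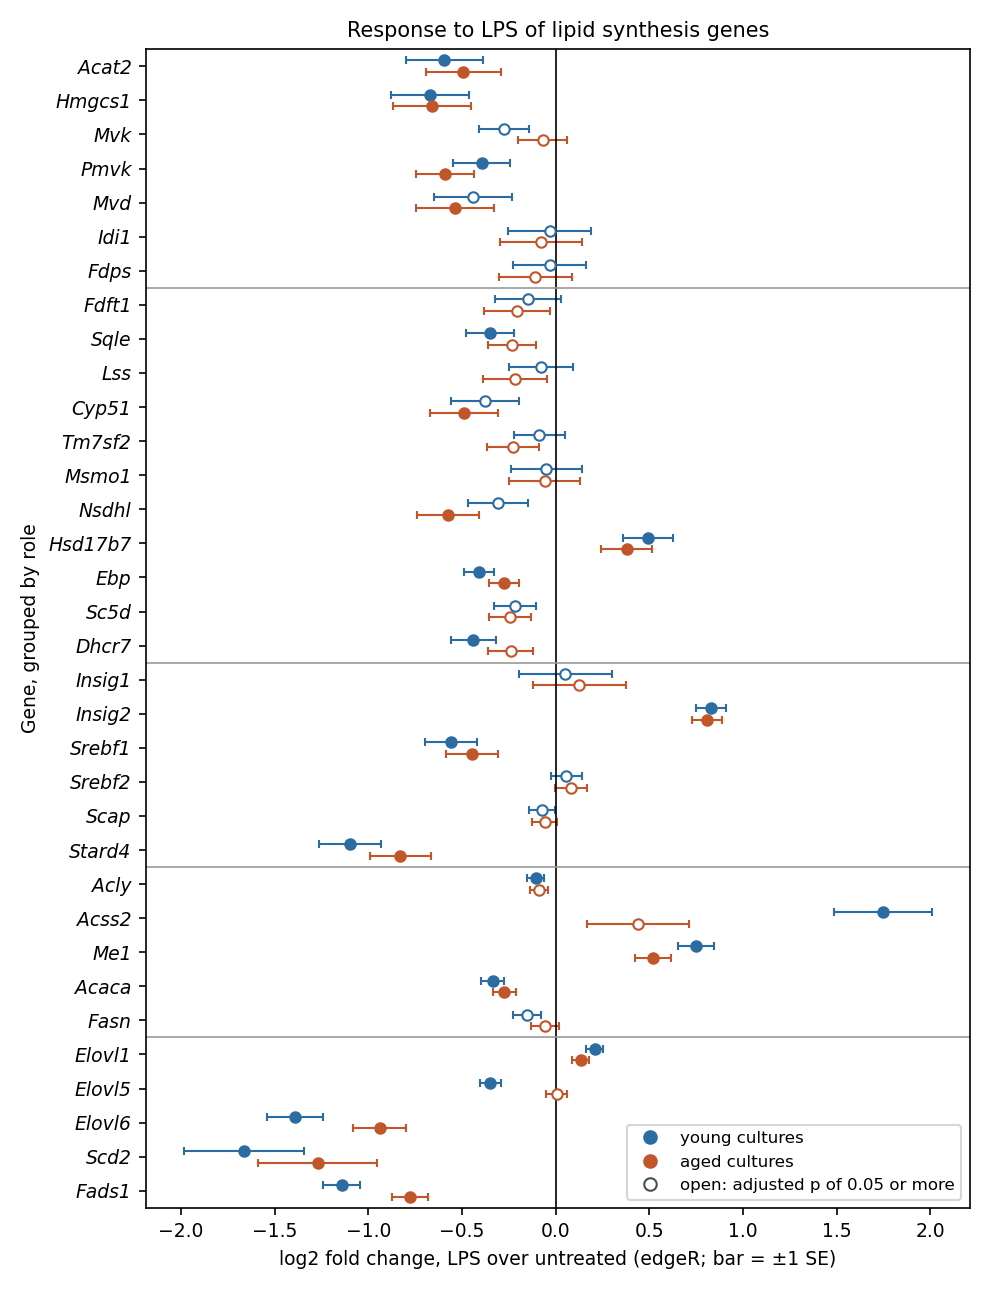
Log2 fold change of LPS-treated over untreated cultures (horizontal axis, edgeR, bars of 1 SE) for the 34 tested genes (vertical axis, grouped by role) in young and aged cultures of 5 each, filled where the adjusted p is below 0.05. *Scd2*, *Elovl6*, *Fads1* and *Stard4* lie farthest to the left in both ages, and *Acss2* in young cultures, at 1.75, farthest to the right.

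Among the tested genes, the steepest falls in both ages were those of *Scd2* and *Elovl6*, which desaturate and lengthen fatty acids. *Fads1* and the sterol carrier gene *Stard4* followed, with *Stard4* ahead of *Fads1* in aged cultures. *Scd2* measured 1310, 1593, 1520, 1717 and 2104 CPM in young untreated replicates 1 to 5 and 241, 442, 510, 584 and 824 CPM with LPS. In aged cultures it measured 3070, 1672, 1071, 1822 and 2211 CPM untreated and 1368, 617, 318, 752 and 1025 CPM with LPS. The groups were apart in young cultures, whereas in aged cultures LPS replicate 1 reached above untreated replicate 3, and the treated culture was the lower of its batch in all 10 batch pairs. The fall was 3.17-fold in young cultures (log2 fold change -1.66 ± 0.32 SE, adjusted p = 0.0001) and 2.41-fold in aged ones (-1.27 ± 0.32, adjusted p = 0.0018).

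*Elovl6*, the elongase that takes palmitate to stearate, measured 62.4, 60.0, 60.4, 70.7 and 70.6 CPM in young untreated and 18.8, 20.9, 21.2, 29.2 and 32.9 CPM in young LPS-treated replicates 1 to 5. In aged cultures it measured 92.7, 68.6, 61.1, 74.7 and 77.6 CPM without and 44.9, 41.0, 25.9, 38.9 and 44.6 CPM with LPS. In each age every treated culture lay below every untreated one. The log2 fold change was -1.39 ± 0.15 in young (2.62-fold, adjusted p = 2.82e-08) and -0.94 ± 0.14 in aged cultures (1.92-fold, adjusted p = 7.89e-06).

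*Fads1*, the delta-5 desaturase that completes arachidonic and eicosapentaenoic acid, measured 247, 257, 251, 275 and 277 CPM in young untreated and 112, 107, 104, 128 and 140 CPM in young LPS-treated cultures. The aged cultures measured 306, 233, 215, 241 and 264 CPM untreated and 175, 130, 125, 144 and 161 CPM with LPS. Treated and untreated cultures did not overlap in either age. It fell 2.21-fold in young (log2 -1.14 ± 0.10, adjusted p = 9.17e-10) and 1.71-fold in aged cultures (-0.78 ± 0.10, adjusted p = 5.91e-07).

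The other elongases moved less. *Elovl5*, which extends polyunsaturated chains, measured 111, 97.8, 98.2, 90.3 and 105 CPM in young untreated and 78.2, 75.0, 75.9, 79.4 and 85.7 CPM in young LPS-treated cultures. The aged cultures measured 107, 102, 103, 97.5 and 97.4 CPM untreated and 106, 107, 95.7, 104 and 97.0 CPM treated. All 5 young treated cultures lay below all untreated ones, whereas the aged groups overlapped. Its log2 fold change was -0.35 ± 0.055 in young (adjusted p = 7.88e-06) and 0.0049 ± 0.054 in aged cultures (adjusted p = 0.95). *Elovl1* rose slightly, by 0.21 ± 0.046 in young (adjusted p = 0.000379) and 0.13 ± 0.046 in aged cultures (adjusted p = 0.0173). Refitted without each library or batch in turn, the aged call was lost without batch 2, 3 or 5, and it was also lost with no filter on low counts (adjusted p = 0.134). By library size alone these 2 changes were -0.01 and -0.03, so the direction for *Elovl1* depends on the scaling. Its exons share 53 bases with those of *Cdc20* on the opposite strand.

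**Figure D3:**
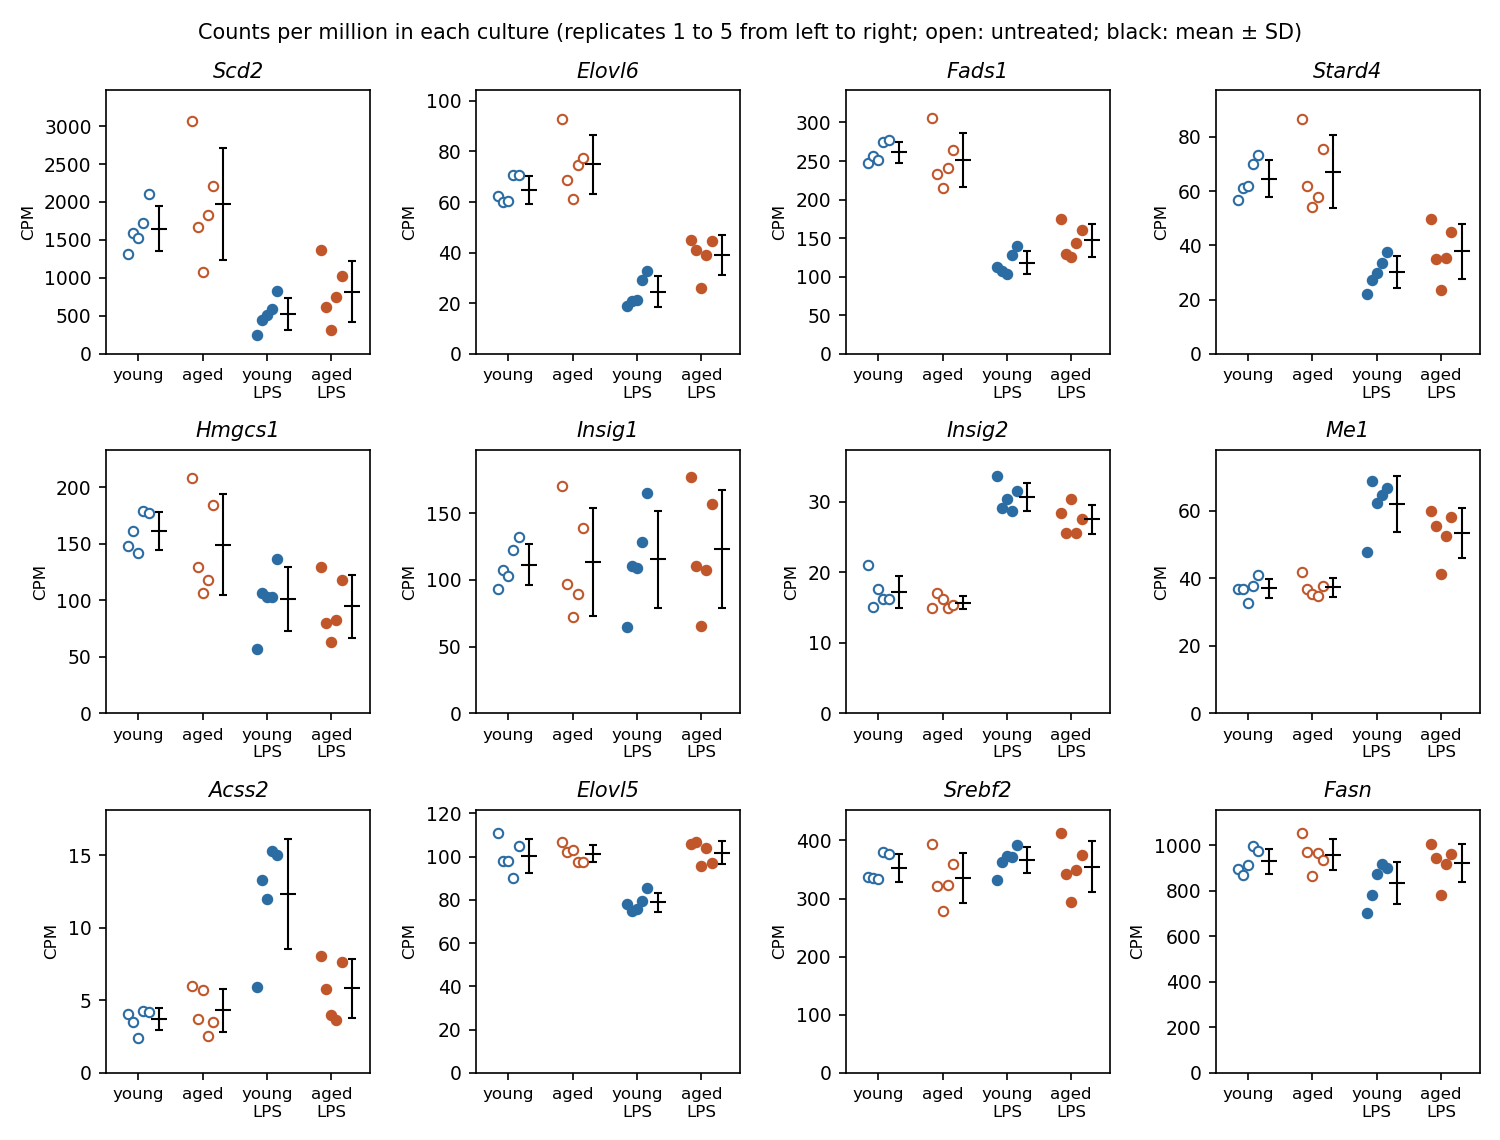
CPM (vertical axes, from 0) of 12 genes in each of the 20 cultures, in the order of replicates 1 to 5 within each group, with the mean and SD in black. In *Scd2*, *Elovl6*, *Fads1* and *Stard4* the group means with LPS lie below those without it in both ages, in *Insig2* and *Me1* above, and in *Elovl5* only the young LPS-treated cultures are lower.

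Among the regulators, the 2 INSIG genes and the 2 SREBP genes each gave unlike results. *Insig2*, which retains the SCAP and SREBP complex in the endoplasmic reticulum, measured 21.0, 15.1, 17.6, 16.2 and 16.2 CPM in young untreated and 33.6, 29.1, 30.4, 28.7 and 31.5 CPM in young LPS-treated cultures. In aged cultures it measured 14.9, 17.0, 16.2, 14.9 and 15.3 CPM untreated and 28.4, 25.5, 30.3, 25.6 and 27.5 CPM with LPS. Every treated culture exceeded every untreated one. The rise was 1.78-fold in young (log2 0.83 ± 0.080, adjusted p = 4.62e-09) and 1.75-fold in aged cultures (0.81 ± 0.080, adjusted p = 1.33e-08). *Insig1*, the other retention factor, whose transcription is itself driven by SREBP, measured 93.2, 107, 103, 122 and 132 CPM in young untreated and 64.3, 110, 109, 128 and 165 CPM in young LPS-treated cultures. The aged cultures spread from 72.0 to 170 CPM untreated and from 65.3 to 177 CPM with LPS, with replicate 3 lowest and replicate 1 highest each time. The groups overlapped throughout, and the log2 fold changes of 0.05 (95% interval -0.43 to 0.54, adjusted p = 0.87) and 0.13 (-0.36 to 0.61, adjusted p = 0.695) leave room for changes in either direction.

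*Srebf1* measured 177, 210, 210, 209 and 236 CPM in young untreated and 112, 140, 140, 149 and 165 CPM in young treated cultures, with no overlap. It fell 1.47-fold in young (log2 -0.56 ± 0.14, adjusted p = 0.00135) and 1.36-fold in aged cultures (-0.45 ± 0.14, adjusted p = 0.00941), where the groups overlapped but the treated culture was the lower in each of the 5 batches. Its exons share at most 109 bases with *Rai1* on the opposite strand. For *Srebf2*, the main activator of the sterol arm, the log2 fold change was 0.06 (95% interval -0.11 to 0.22, adjusted p = 0.575) in young and 0.08 (-0.08 to 0.25, adjusted p = 0.432) in aged cultures. By batch, the treated aged culture was the higher in all 5, by 0.060 to 0.11, and the treated young culture in 3 of 5. *Scap*, the escort protein, gave -0.07 (-0.21 to 0.06, adjusted p = 0.366) and -0.06 (-0.19 to 0.08, adjusted p = 0.493). *Stard4*, which carries cholesterol between membranes, measured 56.6, 61.1, 61.8, 70.0 and 73.2 CPM in young untreated and 22.1, 27.1, 29.8, 33.6 and 37.6 CPM in young treated cultures. Its aged cultures measured 86.7, 62.0, 54.1, 57.9 and 75.4 CPM untreated and 49.9, 34.8, 23.6, 35.5 and 45.0 CPM with LPS. No treated culture reached an untreated one of its age. *Stard4* fell 2.14-fold in young (log2 -1.10 ± 0.17, adjusted p = 4.3e-06) and 1.78-fold in aged cultures (-0.83 ± 0.16, adjusted p = 0.000155).

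In the mevalonate arm, 3 of 7 genes fell with LPS in young and 4 of 7 in aged cultures, and none rose. These are 42.9% and 57.1% of a short list, beside the 33.5% and 26.9% of all genes that fell. The medians were -0.39 and -0.49. *Hmgcs1*, the synthase that makes HMG-CoA, measured 148, 161, 142, 179 and 177 CPM in young untreated and 56.4, 106, 103, 103 and 136 CPM in young treated cultures. In aged cultures it measured 208, 129, 106, 118 and 184 CPM without and 129, 80.0, 62.8, 82.9 and 118 CPM with LPS. The young groups were separate and the aged groups overlapped. It fell 1.59-fold in young (log2 -0.67 ± 0.21, adjusted p = 0.0071) and 1.58-fold in aged cultures (-0.66 ± 0.21, adjusted p = 0.0103). *Acat2*, the cytosolic acetoacetyl-CoA thiolase, fell by 0.60 ± 0.21 in young (adjusted p = 0.0146) and by 0.49 ± 0.20 in aged cultures (adjusted p = 0.0421) on the log2 scale. *Pmvk*, the phosphomevalonate kinase, fell by 0.39 ± 0.15 (adjusted p = 0.0288) and 0.59 ± 0.16 (adjusted p = 0.00281). Each comparison was refitted 15 times, leaving out in turn each of its 10 libraries and each of the 5 batches. A fit without a single library keeps the other culture of its batch, so it also unbalances the groups where a batch runs high or low. The young call for *Acat2* was lost without batch 2 and without batch 4 (adjusted p = 0.0587 and 0.0535). The young call for *Pmvk* was lost in 6 of these fits, among them that without young LPS replicate 1, and the aged call for *Acat2* in 10, among them those without aged untreated replicate 1 and without aged LPS replicate 3.

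*Mvd*, the decarboxylase that makes isopentenyl diphosphate, gave -0.44 ± 0.21 in young (adjusted p = 0.0686, with the block 0.0237) and fell by 0.54 ± 0.21 in aged cultures (adjusted p = 0.0345, lost in 8 of 15 fits, among them those without aged untreated replicate 1 and without aged LPS replicate 3). That call was also lost without batch 2, 4 or 5, although the treated culture was the lower in every batch of both ages. For *Mvk*, the mevalonate kinase, the young log2 fold change was -0.28 ± 0.13 (adjusted p = 0.0721, with the block 0.0269) and the aged one -0.07 ± 0.13 (adjusted p = 0.685). The genes that make the prenyl diphosphates showed small differences. *Idi1*, the isomerase, gave -0.03 (95% interval -0.47 to 0.40) and -0.08 (-0.51 to 0.36). *Fdps*, the farnesyl diphosphate synthase, gave -0.03 (-0.42 to 0.35) and -0.11 (-0.49 to 0.28). *Fdps* shares 1124 exonic bases with the same-strand gene model *Gm43738*, so its counts are uncertain.

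In the sterol arm, which runs from squalene to cholesterol, 3 of 11 genes fell and 1 rose in each age, and the medians were -0.22 in young and -0.23 in aged cultures. The 27.3% that fell lie below the 33.5% of all genes in young cultures and close to the 26.9% in aged ones. The 9.09% that rose lie below the 31.2% and 27.5%. With the block, 6 fell in young and 4 in aged cultures. *Hsd17b7*, a sterol 3-ketoreductase, was the gene that rose. It measured 33.1, 34.4, 30.8, 36.5 and 35.3 CPM in young untreated and 36.6, 45.7, 53.7, 51.2 and 51.4 CPM in young treated cultures, and 34.4, 30.8, 24.7, 27.2 and 36.4 CPM in aged untreated and 48.2, 38.6, 26.3, 36.9 and 49.3 CPM in aged treated cultures. The young groups barely separated and the aged groups overlapped, with the treated culture higher in every batch. The log2 fold change was 0.49 ± 0.14 in young (adjusted p = 0.003) and 0.38 ± 0.14 in aged cultures (adjusted p = 0.0227), the latter lost in 8 of 15 fits, among them those without aged LPS replicate 1 and without aged untreated replicate 3. By library size alone, where the median of all genes moved down, *Hsd17b7* passed in neither age.

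*Ebp*, the sterol isomerase, fell in both ages, from 19.0 to 23.5 CPM down to 14.8 to 18.1 CPM in young cultures (log2 -0.41 ± 0.079, adjusted p = 0.000101) and by 0.28 ± 0.079 in aged ones (adjusted p = 0.00504). *Dhcr7*, which closes the pathway by reducing 7-dehydrocholesterol, fell by 0.44 ± 0.12 in young cultures (adjusted p = 0.00314) and gave -0.24 ± 0.12 in aged ones (adjusted p = 0.0985). *Sqle*, the squalene epoxidase, fell by 0.35 ± 0.13 in young cultures (adjusted p = 0.0224, lost in 3 of 15 fits, among them that without young LPS replicate 1) and gave -0.23 ± 0.13 in aged ones (adjusted p = 0.137). These 3 genes did not overlap between untreated and treated young cultures. Neither did *Mvk* and *Nsdhl*, which did not pass there, and the share of all genes without overlap was not counted. *Cyp51*, the lanosterol demethylase, gave -0.38 ± 0.18 in young (adjusted p = 0.0757, with the block 0.0247) and fell by 0.49 ± 0.18 in aged cultures (adjusted p = 0.0273). *Nsdhl*, which removes the C4 methyl groups with its partners, gave -0.31 ± 0.16 in young (adjusted p = 0.0996, with the block 0.0375) and fell by 0.57 ± 0.17 in aged cultures (adjusted p = 0.00571). The aged call of *Cyp51*, whose exons share 166 bases with the opposite-strand gene *Akap9*, was lost in 6 of 15 fits, among them those without aged untreated replicate 1 and without aged LPS replicate 3. Of the fits without a whole batch, only that without batch 2 lost it. The treated aged culture was the lower in each of the 5 batches.

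For *Sc5d*, the sterol C5 desaturase, the log2 fold changes were -0.22 ± 0.11 in young (adjusted p = 0.092, with the block 0.0494) and -0.24 ± 0.11 in aged cultures (adjusted p = 0.0714, with the block 0.0327). The other 4 members of the arm passed in neither age, with or without the block. The treated culture was nevertheless the lower of its batch in all 5 batches of each age for *Fdft1*, and in all 5 aged batches for *Lss*. For *Lss* in young cultures, and for *Tm7sf2* and *Msmo1* in both ages, the batches went both ways. *Fdft1*, the squalene synthase, gave -0.15 ± 0.18 and -0.21 ± 0.18, and *Lss*, the lanosterol synthase, -0.08 ± 0.17 and -0.22 ± 0.17. *Tm7sf2*, a sterol C14 reductase, gave -0.09 ± 0.13 and -0.23 ± 0.14, and *Msmo1*, the C4 methyl oxidase, -0.05 ± 0.19 and -0.06 ± 0.19. *Fdft1* shares 774 exonic bases with *Ctsb* on the opposite strand, and *Tm7sf2* shares 532 with *Vps51* on the same strand.

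Of the 5 genes of fatty acid supply and chain synthesis, 2 rose and 2 fell in young cultures, and 1 rose and 1 fell in aged ones. These are 40% each way in young cultures, where 31.2% of all genes rose and 33.5% fell. In aged cultures they are 20% each way, beside 27.5% and 26.9%. *Acss2* measured 4.07, 3.52, 2.41, 4.29 and 4.19 CPM in young untreated and 5.93, 13.3, 12.0, 15.3 and 15.0 CPM in young treated cultures. Aged cultures measured 6.01, 3.70, 5.71, 2.53 and 3.53 CPM untreated and 8.08, 5.77, 4.00, 3.64 and 7.6 CPM treated. Treated young cultures all exceeded the untreated ones, although replicate 1 stood well below its group, and the aged groups overlapped. The rise was 3.36-fold in young cultures (log2 1.75 ± 0.26, adjusted p = 4.14e-06), and the aged log2 fold change was 0.44 ± 0.27 (adjusted p = 0.178). *Acss2* had 1826 counts over all libraries. Its exons overlap those of *Ggt7* and *Gss* on the opposite strand, by at most 395 bases with a single gene. *Gss*, the glutathione synthetase, rose by 0.63 ± 0.062 in young and 0.30 ± 0.062 in aged cultures. How much of the *Acss2* count could come from these overlaps was not tested.

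*Me1*, the cytosolic malic enzyme that makes NADPH, measured 36.8, 36.9, 32.7, 37.6 and 40.8 CPM in young untreated and 47.8, 68.8, 62.3, 64.5 and 66.6 CPM in young treated cultures. The aged cultures measured 41.8, 36.7, 35.2, 34.8 and 37.8 CPM untreated and 60.0, 55.4, 41.2, 52.4 and 58.2 CPM treated. The young groups were apart, and in aged cultures treated replicate 3 lay just below untreated replicate 1. The log2 fold change was 0.75 ± 0.097 in young (adjusted p = 4.6e-07) and 0.52 ± 0.097 in aged cultures (adjusted p = 8.71e-05). *Acaca*, the acetyl-CoA carboxylase that commits carbon to fatty acids, fell by 0.33 ± 0.062 in young (adjusted p = 5.27e-05) and 0.27 ± 0.061 in aged cultures (adjusted p = 0.000608). *Fasn* gave -0.15 ± 0.074 (adjusted p = 0.0741) and -0.06 ± 0.074 (adjusted p = 0.549). *Acly*, the ATP-citrate lyase, fell by 0.11 ± 0.046 in young cultures (adjusted p = 0.0487), a call lost in 11 of 15 fits and in DESeq2 (adjusted p = 0.102), and gave -0.09 ± 0.046 in aged ones (adjusted p = 0.109, with the block 0.0166).

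Aged untreated cultures were compared with young untreated ones to ask whether long-term cultivation changed the basal expression of lipid synthesis. None of the 34 genes rose and none fell by edgeR's quasi-likelihood test, against 3.71% of all genes that rose and 7.81% that fell. DESeq2 called none either, and 2 of the 34, *Tm7sf2* and *Acly*, had an unadjusted p below 0.05. Log2 fold changes ran from -0.30 to 0.26, with a median of -0.06 where all genes had -0.01. The standard errors ran from 0.046 to 0.31, so that for the genes with the widest spread a moderate difference was not detectable. *Scd2*, in which aged untreated replicate 1 stood at 3070 CPM, gave 0.26 (95% interval -0.36 to 0.87, adjusted p = 0.674), *Insig1* 0.02 (-0.46 to 0.51, adjusted p = 0.97) and *Hmgcs1* -0.12 (-0.52 to 0.29, adjusted p = 0.787). For genes with little spread the bounds were narrow: *Fasn* gave 0.04 (-0.10 to 0.19), *Elovl5* 0.02 (-0.09 to 0.12) and *Srebf2* -0.07 (-0.24 to 0.09).

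*Acly* measured 330, 301, 310, 297 and 312 CPM in young and 307, 282, 294, 273 and 293 CPM in aged untreated cultures. The ranges overlapped, and the aged culture was the lower in each of the 5 batches. Its log2 fold change was -0.10 ± 0.046 (adjusted p = 0.191), and with the batch as a block the adjusted p was 0.0333. The block and the count of batches rest on matching by replicate number. Deviations of same-numbered untreated cultures correlated between the ages at only 0.11 on average. *Tm7sf2* gave -0.30 ± 0.13 (adjusted p = 0.157, with the block 0.102). Without aged untreated replicate 1, the culture that was highest in most of these genes, *Tm7sf2* passed as lower (-0.42, adjusted p = 0.0427), and the median of the 34 genes was -0.14.

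Under LPS, aged cultures were compared with young ones: 3 of the 34 genes were higher in aged cultures, against 14.0% of all genes, and 3 were lower, against 15.0%. With the block, 3 were higher and 5 lower, and by library size alone 5 were higher and 2 lower. This comparison shares its cultures with those of the LPS responses. Deviations of same-numbered LPS-treated cultures correlated between the ages at only 0.043 on average, so counts by batch rest on weak matching here. The 3 higher genes, all of fatty acid lengthening or desaturation, were *Elovl5*, *Elovl6* and *Fads1*, whose values in each culture stand above. *Elovl5* was 1.29-fold higher (log2 0.37 ± 0.055, adjusted p = 2.66e-05), with every aged treated culture above every young treated one. *Elovl6* was 1.58-fold higher (0.66 ± 0.15, adjusted p = 0.00214). Only aged replicate 3 fell within the young range, and the aged culture was the higher in each batch. *Fads1* was 1.24-fold higher (0.31 ± 0.099, adjusted p = 0.0213) and also higher in each batch, with overlapping groups, and this call was lost in 6 of 15 fits, among them that without aged LPS replicate 1. Without aged LPS replicate 3, 7 genes were higher and 3 lower. *Scd2* gave 0.65 ± 0.32 (adjusted p = 0.134).

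The 3 lower genes were *Acss2*, 2.12-fold lower (log2 -1.09 ± 0.25, adjusted p = 0.00233), *Nsdhl*, 1.42-fold lower (-0.51 ± 0.17, adjusted p = 0.0266), and *Tm7sf2*, 1.36-fold lower (-0.44 ± 0.14, adjusted p = 0.0202). *Nsdhl* measured 18.4, 18.5, 21.9, 18.1 and 20.6 CPM in young and 18.7, 9.65, 11.5, 12.1 and 16.6 CPM in aged treated cultures, and aged replicate 1 lay within the young range. *Tm7sf2* measured 13.3, 12.5, 11.7, 9.55 and 11.0 CPM in young and 8.29, 8.08, 10.6, 9.21 and 6.44 CPM in aged treated cultures, with overlapping groups and the aged culture lower in each batch. The call for *Nsdhl* was lost in 8 of 15 fits, among them that without aged LPS replicate 3, and that for *Tm7sf2* in 5. *Vps51*, which shares exon with *Tm7sf2*, was also lower under LPS, by 0.13 ± 0.046. *Pmvk*, at -0.35 ± 0.16 (adjusted p = 0.108), and *Elovl1*, at -0.12 ± 0.046 (adjusted p = 0.0618), passed with the block (adjusted p = 0.0282 and 0.0445).

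**Figure D4:**
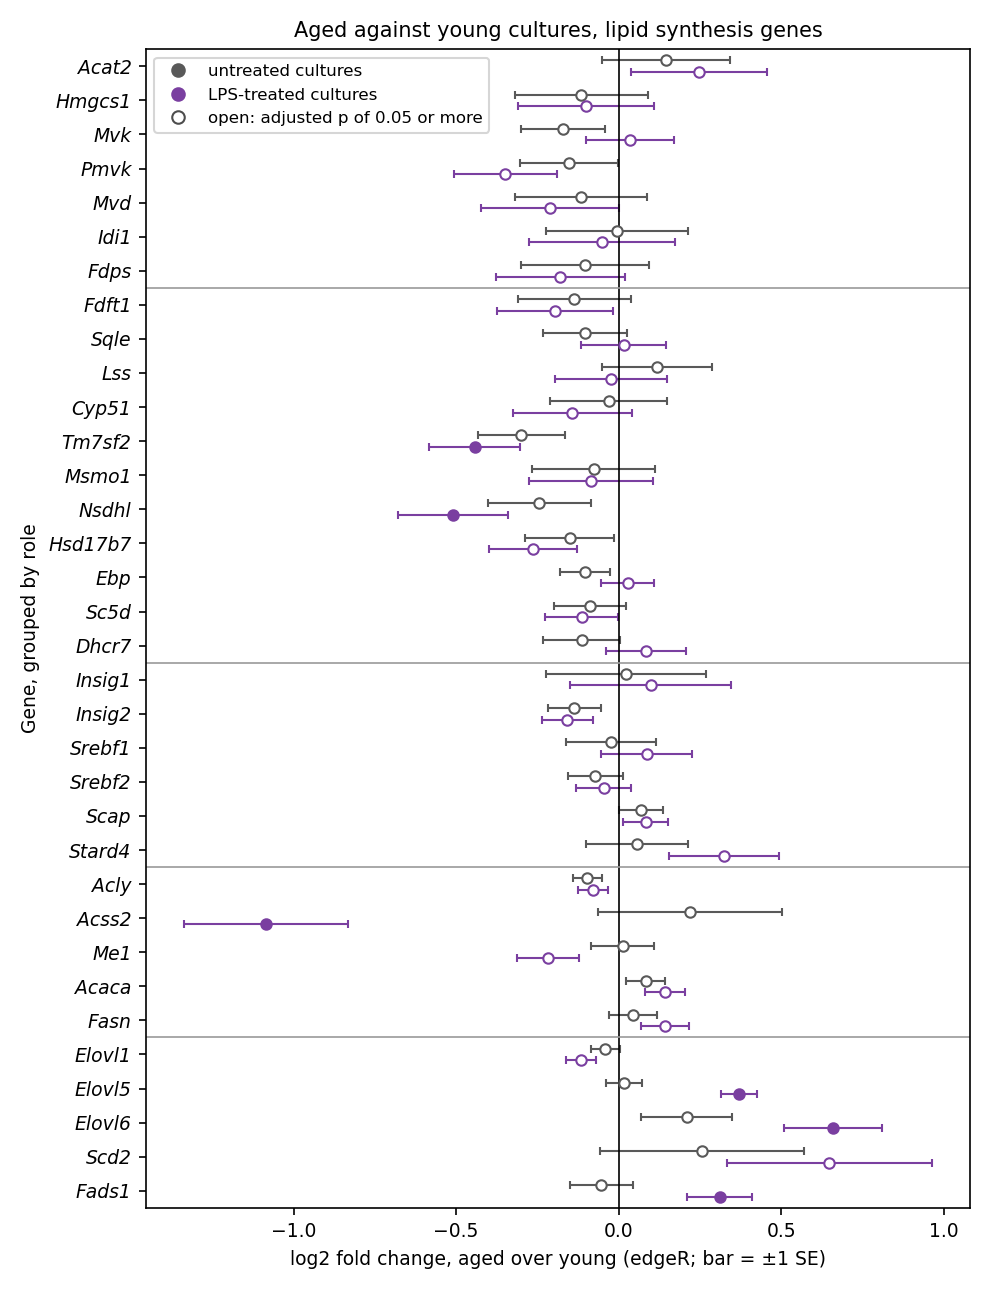
Log2 fold change of aged over young cultures (horizontal axis, edgeR, bars of 1 SE) for the 34 tested genes (vertical axis, grouped by role), untreated in grey and LPS treated in purple, filled where the adjusted p is below 0.05. No gene is filled without LPS, and 6 are filled with LPS, of which *Acss2*, at -1.09, lies farthest from 0.

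Whether the response to LPS itself differed between the ages was tested as the difference of the log2 fold changes, aged minus young. It passed for 1 of the 34 genes in the positive direction, against 4.12% of all genes, and for 1 in the negative direction, against 2.27%. *Elovl5* fell in young cultures only, and the difference was 0.35 ± 0.077 (adjusted p = 0.00729). It was positive in each of the 5 batches, from 0.26 to 0.48, and in 25 fits that each left out 1 of the 20 libraries or 1 batch, the call was lost without batch 2 (adjusted p = 0.0936). For *Acss2* the difference was -1.31 ± 0.38 (adjusted p = 0.0405). It was negative in each batch, from -2.75 to -0.11, and the call was lost in 16 of the 25 fits, where the adjusted p ran from 0.00885 to 0.224. Among these, the adjusted p was 0.0529 without aged LPS replicate 3, 0.0836 without aged untreated replicate 1 and 0.224 without batch 3. *Gss*, whose exons overlap those of *Acss2* on the other strand, had a difference of -0.33 ± 0.087 (adjusted p = 0.0236).

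*Fads1* and *Elovl6* fell less steeply in aged cultures in each of the 5 batches, with differences of 0.36 ± 0.14 (adjusted p = 0.133, with the block 0.0274) and 0.45 ± 0.21 (adjusted p = 0.228, with the block 0.0921). For *Scd2* the difference was 0.39 (95% interval -0.48 to 1.26), for *Stard4* 0.27 (-0.19 to 0.72), for *Hmgcs1* 0.01 (-0.56 to 0.59) and for *Insig2* -0.02 (-0.24 to 0.20). None of these 4 passed, and the intervals of *Scd2*, *Stard4* and *Hmgcs1* leave room for differences as large as that of *Elovl5*.

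Neighbouring genes of lipid metabolism outside the 36 were read from 2 lists, chosen with earlier results of these data known. Their shares beside those of all genes therefore describe the lists and are no test of enrichment. The first held 30 further genes of synthesis and SREBP processing, of which 26 were tested. With LPS, 14 of them fell and 8 rose in young cultures, and 8 fell and 9 rose in aged ones. In young cultures these are 53.8% lower and 30.8% higher, beside 33.5% and 31.2% of all genes, and in aged cultures 30.8% lower and 34.6% higher, beside 26.9% and 27.5%. *Lpin1*, the phosphatidate phosphatase of triglyceride synthesis, changed by -4.37 ± 0.30 (adjusted p = 1.89e-11) and -2.73 ± 0.27 (adjusted p = 9.8e-09), a difference of 1.63 ± 0.44 between the ages (adjusted p = 0.0285). *Acsl1*, which activates long-chain fatty acids, changed by 1.71 ± 0.086 and 1.29 ± 0.085, a difference of -0.43 ± 0.12 (adjusted p = 0.0331). *Elovl7*, a further elongase, fell by 1.60 ± 0.13 and 1.11 ± 0.13. In aged untreated cultures, 3 of the 26 were lower (11.5%, beside 7.81% of all genes) and none higher: *Pgrmc1*, a partner of sterol-metabolizing P450 enzymes, at -0.95 ± 0.17, *Elovl7* at -0.37 ± 0.12 and *Tecr*, the last enzyme of the elongation cycle, at -0.25 ± 0.048 (adjusted p = 0.00075, 0.0425 and 0.00154). With the block, 5 were lower and 1 higher. Under LPS, 4 of the 26 were higher and 4 lower in aged cultures (15.4% each, beside 14.0% and 15.0% of all genes), with *Lpin1* at 1.16 ± 0.39, *Pgrmc1* at -0.72 ± 0.15 and *Lbr*, the other sterol C14 reductase, at 0.56 ± 0.11 showing the largest changes, and with the block 5 were higher and 7 lower.

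The second list held 17 genes of cholesterol efflux, oxysterols and storage, of which 15 were tested. With LPS, 3 rose and 5 fell in young cultures, and 3 rose and 4 fell in aged ones. The shares that fell, 33.3% and 26.7%, lie at the background of 33.5% and 26.9%, and the 20.0% that rose in each age lie below the 31.2% and 27.5% of all genes. *Abca1*, the exporter of cholesterol, rose by 0.95 ± 0.077 in young and 0.95 ± 0.078 in aged cultures, and *Nr1h3*, the oxysterol receptor LXR alpha, by 0.89 ± 0.068 and 0.71 ± 0.068. *Cyp27a1*, the sterol 27-hydroxylase, fell by 1.04 ± 0.11 in young cultures. *Mylip*, which degrades lipoprotein receptors, fell by 0.70 ± 0.089 in aged cultures, where the difference between the ages was -0.55 ± 0.12 (adjusted p = 0.00881). Aged untreated cultures were lower in 6 of the 15 (40.0%, beside 7.81% of all genes) and higher in none, with *Abca7* at -0.44 ± 0.10 (adjusted p = 0.00613), *Abca1* at -0.41 ± 0.078 (adjusted p = 0.00129) and *Lipa*, the lysosomal acid lipase, at -0.36 ± 0.081 (adjusted p = 0.00526) showing the largest differences. Under LPS, 7 of the 15 were lower (46.7%, beside 15.0% of all genes) and 1 higher in aged cultures, among them *Mylip* at -0.63 ± 0.090, *Lipa* at -0.60 ± 0.081 and *Npc2*, a lysosomal cholesterol carrier, at -0.53 ± 0.17.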

How the data were processed

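The authors prepared stranded mRNA libraries, aligned reads to GRCm38 with STAR 2.6.1d and counted them per gene with featureCounts 1.5.1, per the submitters' processing notes, and deposited raw counts. Strand and overlap settings of the counting are not given in the sources used here. All 20 columns were used. Genes of the lists were matched by symbol through the GENCODE annotation of GRCm38; these members, lists and tests were chosen with earlier results of these data known.

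Counts were tested with edgeR 4.0.16 (quasi-likelihood F-test, TMM, filterByExpr, group as the only factor, all 20 libraries, 12799 genes) in R 4.3.3, with Benjamini-Hochberg adjustment over all genes. SE is the log2 fold change divided by the root of F, and intervals are ±1.96 SE. CPM used TMM-scaled library sizes, and log2 CPM a prior count of 2. Further genes were named as the 3 passing ones with the largest change per list and comparison. The labels give replicate numbers as batches. Deviations of same-numbered cultures correlated across genes at 0.28 on average between young groups and 0.26 between aged groups, at 0.11 between the untreated groups (-0.085 to 0.25 by batch) and at 0.043 between the LPS groups (-0.21 to 0.27). No pair of replicates was a duplicate: chi-square per degree of freedom was at least 2.43.

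Alternatives were the batch block, DESeq2 1.42.0, other scalings (its size factors, library sizes alone), other filters (none, or 10 counts in every library), fitting the compared groups by themselves, stricter calls (adjusted p below 0.01, or an absolute change of 0.5 on the log2 scale), and leaving out each library or batch. Each tool was first tested on simulated counts, drawn independently for each gene and culture with a fixed fold change in aged untreated cultures alone. The simulation held no shift shared by the genes of a culture and did not cover the LPS comparisons.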

Additional observations from a re-analysis of the deposited data

Results flagged for a closer look

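In 4 of 136 groups of 5 cultures, 1 culture stood apart from the others by Dixon's criterion, where chance flags about 1 in 20 groups. They were *Mvk* in young LPS replicate 2 (10.1 CPM), *Acss2* in young LPS replicate 1 (5.93 CPM), *Me1* in young LPS replicate 1 (47.8 CPM) and *Elovl6* in aged LPS replicate 3 (25.9 CPM), each the lowest of its group. The response to LPS differed between the ages, by a test of the difference itself, for *Acss2* (-1.31, aged minus young) and *Elovl5* (0.35).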

How the results depend on the processing

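Of 44 calls among the 34 tested genes in 5 comparisons, 30 held in every fit that left out a library or a batch and 14 were lost in at least 1. The batch block lost 0 of the 44 and gained 11. DESeq2 lost 4 and gained 1, the lost ones being *Acat2*, *Mvd* and *Cyp51* with LPS in aged cultures and *Acly* in young ones. Under the block, 1 gene was lower in aged untreated cultures, 5 were lower in aged cultures under LPS, and 2 differed positively between the LPS responses. By library size alone, 3 genes rose and 22 fell with LPS in young cultures (median -0.47), 2 rose and 21 fell in aged cultures (median -0.39), and 5 were higher in aged cultures under LPS. The direction turned there for *Elovl1* with LPS, to -0.011 in young and -0.027 in aged cultures, and for *Elovl5* with LPS in aged cultures, to -0.15. All of these sit on a scale whose all-gene median had moved.

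Where a log2 fold change of 0.5 or more was asked for, 3 genes rose and 7 fell with LPS in young cultures, 2 rose and 8 fell in aged cultures, 1 was higher in aged cultures under LPS, and 0 differed positively between the responses. With adjusted p below 0.01, 2 genes rose with LPS in aged cultures, 1 was lower in aged cultures under LPS and 0 differed negatively between the responses. These thresholds call fewer genes by construction. No share of all genes was counted at them, so these counts have no background beside them.

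Leaving out a library or a batch gave 0 to 1 lower genes in aged untreated cultures, with 1 only without aged untreated replicate 1. With LPS in aged cultures, 2 to 4 genes rose, with 2 without batch 2 or batch 5, and the median ran from -0.31 without aged LPS replicate 1 to -0.099 without aged untreated replicate 1. Under LPS, 2 to 7 genes were higher in aged cultures, with 7 without aged LPS replicate 3 or batch 3, and 1 to 6 were lower, with 1 without batch 2 and 6 without batch 1. Between the responses, 0 to 2 differed positively, with 2 without aged untreated replicate 1, and 0 to 1 negatively. The negative difference, *Acss2*, held without aged LPS replicates 1 and 5, aged untreated replicates 4 and 5, young LPS replicate 1, young untreated replicates 1, 4 and 5, and batch 1, and was lost in the other fits. The cause of these shifts was not tested, and no share of all genes was counted in the fits that left out a library or batch. Depth limits *Acss2* most among the tested genes named here, and *Scd1* and *Fads2* could not be compared.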
